A study of Mus musculus with 2 samples.

Results

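Adipocyte-marker nuclei in which no transcript of the thermogenic genes Ucp1, Cidea and Ppargc1a was captured were described in single-nucleus RNA sequencing (snRNA-seq) of mouse inguinal white adipose tissue (iWAT), which lies under the skin of the groin. They were selected on measured counts. A nucleus was counted among them when it held at least 1 unique molecular identifier (UMI, a tag that marks 1 captured RNA molecule) of at least 4 of the 6 adipocyte genes Plin1, Plin4, Adipoq, Cidec, Pparg and Lipe, and 0 UMIs of Ucp1, Cidea and Ppargc1a. Barcodes were kept only with 500 or more detected genes and with mitochondrial genes at no more than 5% of UMIs. The selection gave 1118 nuclei of 6593 kept barcodes, of which 344 lay in the WT-labelled library and 774 in the KO-labelled library. The levels of the genes that chose them are given below as a description and support nothing.

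White adipocytes store triglyceride in a large lipid droplet coated by perilipins, take up fatty acids and glucose after a meal under the control of insulin, and release fatty acids again when catecholamines act on adrenergic receptors. Thermogenic (beige) adipocytes of the same depot oxidise fuel to make heat. Ucp1 encodes the protein that lets mitochondria dissipate the proton gradient, Ppargc1a a coactivator of mitochondrial genes, and Cidea a lipid droplet protein typical of brown and beige fat.

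The study deleted Lexis, a long noncoding RNA, in adipocytes and asked how its loss bears on the thermogenic program of iWAT. Mice were male, on a C57BL/6 background and fed a Western diet, and their age is not given in the labels. Lexis KO mice were Lexis fl/fl crossed with adiponectin-cre (Lexis-AdKO), in which the promoter of Adipoq drives Cre. Lexis WT mice were Lexis fl/fl without Cre (Lexis-AdWT), so both groups carried the floxed allele and both received the diet. Nuclei were released from iWAT, with the lymph node removed, of 3 mice pooled per genotype, and 1 library was made of each pool, so single mice cannot be told apart and neither genotype has a replicate. Every interval below is a 95% interval that covers counting error only, and no test between genotypes could be made.

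The deposited file names carry the opposite genotype to the sample labels for both libraries, and Lexis itself, which would check the labels, was not analysed here because no row carries its name. The text therefore speaks of the WT-labelled library and the KO-labelled library, and each direction holds for the labels as given. Where values come in pairs, the WT-labelled library is given first. Each library was deposited with 5000 barcodes, holding 9376351 UMIs in the WT-labelled library and 19655049 in the KO-labelled library. The nuclei without a thermogenic transcript had a median of 3861.5 UMIs and 1604 detected genes (344 nuclei, 782 to 25286 UMIs) in the WT-labelled library, and 7083.5 UMIs and 2769.5 genes (774 nuclei, 732 to 47644 UMIs) in the KO-labelled library. All other kept barcodes were shallower, with medians of 1138 and 3299 UMIs. Barcodes with at least 2 B cell or at least 2 T cell markers, and fewer than 4 adipocyte markers, made up 55.7% of the kept barcodes of the WT-labelled library and 3.33% of those of the KO-labelled library, so a share of kept barcodes in one library cannot be set against that in the other. Of 12 barcode sequences that occurred in both libraries, 10 were kept in both, none was a nucleus without a thermogenic transcript in both, and 4 were such a nucleus in 1 library and kept in the other. Doublets were scored but not removed, and the 4% of barcodes with the highest scores included 26 and 63 of the nuclei described.

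The nuclei without a thermogenic transcript made up 9.43% of kept barcodes in the WT-labelled library (interval 8.50 to 10.4) and 26.3% in the KO-labelled library (interval 24.7 to 27.9). Another 79 and 298 nuclei passed the same adipocyte markers and held at least 1 UMI of Ucp1, Cidea or Ppargc1a. Among all adipocyte-marker nuclei, those without a thermogenic transcript were thus 81.3% (344 of 423, interval 77.3 to 84.9) and 72.2% (774 of 1072, interval 69.4 to 74.9). The nuclei just outside the selection were mostly a single UMI away from it. Of the nuclei with a thermogenic transcript, 58 of 79 (73.4%) and 175 of 298 (58.7%) held exactly 1 UMI of the 3 genes together. Ppargc1a was captured in 60 of 423 adipocyte-marker nuclei (14.2%) of the WT-labelled library and in 196 of 1072 (18.3%) of the KO-labelled library, Cidea in 15 (3.55%) and 133 (12.4%), and Ucp1 in 13 (3.07%) and 10 (0.933%). In macrophage-marker barcodes (UMIs of at least 3 of 6 macrophage genes and fewer than 4 adipocyte markers, median 1707 and 3071 UMIs), a cell type that should lack them, Ppargc1a was captured in 0.488% and 0.302%, Cidea in 0.976% and 2.56%, and Ucp1 in 2.44% and 0.452%. The Ucp1 share of adipocyte-marker nuclei in the WT-labelled library thus lay close to that background, and the Ppargc1a shares lay far above it. A small number of nuclei held many UMIs, up to 32 of Ucp1, 21 of Cidea and 55 of Ppargc1a in 1 nucleus of the KO-labelled library and up to 16, 3 and 6 in the WT-labelled library.

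All 6 markers were captured in 135 nuclei of the WT-labelled and 516 of the KO-labelled library, 5 in 130 and 141, and 4 in 79 and 117. Of the genes that made the selection, Plin1 and Plin4, which coat lipid droplets, stood at 1526 and 1415 CPM and at 2771 and 1558 CPM (counts scaled to 1000000 UMIs, taken over all nuclei of a group). Lipe, the hormone-sensitive lipase, was at 717 and 892 CPM, and Adipoq, which encodes adiponectin, at 332 and 309.7 CPM. Cidec, which enlarges lipid droplets, was at 646 and 2149.9 CPM, and Pparg, the nuclear receptor that drives adipocyte differentiation, at 378 and 1692 CPM. Plin4 thus lay lower in the KO-labelled library (ratio of KO-labelled to WT-labelled 0.562), Plin1, Lipe and Adipoq near 1 (0.927, 1.24 and 0.934), and Cidec and Pparg higher (3.33 and 4.48). After subtracting the median of the gene's span class, as explained below, Cidec stayed at a log2 ratio of 2.00 and Pparg was at 0.68. The lowest ratio among the 6 genes, Plin4 included, was then 0.904. Adipoq was also captured in 13.7% and 45.2% of macrophage-marker barcodes, so 1 UMI of it does not mark an adipocyte nucleus.

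How many nuclei count as free of a thermogenic transcript moved with depth. The share in the KO-labelled library was 91.1% of adipocyte-marker nuclei under 2000 UMIs (41 of 45, interval 78.8 to 97.5) and 65.3% between 8000 and 16000 UMIs (226 of 346, interval 60.0 to 70.3). For the WT-labelled library it was 92.4% under 2000 UMIs (61 of 66, interval 83.2 to 97.5), 76.6% between 4000 and 8000 (121 of 158, interval 69.2 to 82.9) and 73.2% between 8000 and 16000 (41 of 56, interval 59.7 to 84.2). From 16000 UMIs up it was 80% (8 of 10, interval 44.4 to 97.5) there and 64.7% (99 of 153, interval 56.6 to 72.3) in the KO-labelled library. When every barcode was thinned to 1000 UMIs and the rule applied again, 93.8% (182 of 194, interval 89.4 to 96.8) and 92.7% (613 of 661, interval 90.5 to 94.6) of adipocyte-marker nuclei had no thermogenic transcript, after 1238 and 117 shallower barcodes were left out. At 2000 UMIs the shares were 89.0% (243 of 273, interval 84.7 to 92.5) and 88.1% (786 of 892, interval 85.8 to 90.2). At equal depth the intervals of both libraries overlapped widely, and at full depth, 81.3% against 72.2%, they did not. A count of 0 in a nucleus therefore marks that no transcript was captured at its depth, not that the gene was silent.

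**Figure D1:**
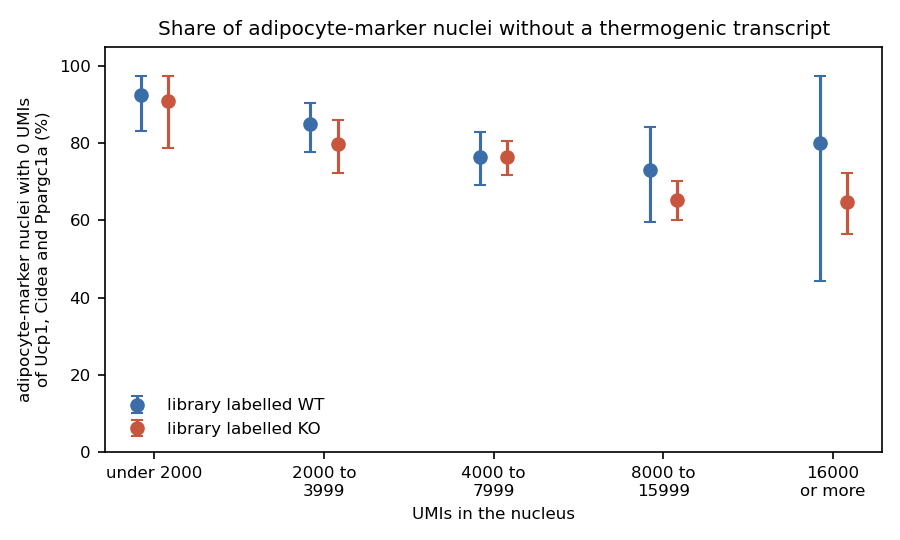
Share of adipocyte-marker nuclei without a thermogenic transcript (vertical axis, percent) by UMIs per nucleus (horizontal axis, depth classes), for the WT-labelled library and the KO-labelled library, with exact 95% intervals for counting error. The share is 92.4% and 91.1% in the shallowest class and 73.2% and 65.3% between 8000 and 16000 UMIs.

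The label of these nuclei as adipocytes was checked against genes that the selection did not use. For this, the 21 measured of 22 listed adipocyte genes were summed. Their summed level was 30831 CPM in nuclei with all 6 markers of the WT-labelled library, 29503 in those with 5 and 24951 in those with 4, against 18327 in the barcodes just outside, with 3 markers. In the KO-labelled library it was 37988 CPM with 6 markers and 31050 with 5, but only 11053 with 4, close to the 7818 CPM with 3. By these genes the label thus held for nuclei with 5 or 6 markers (265 and 657) and for the 79 nuclei with 4 markers in the WT-labelled library. The data go against it for many of the 117 nuclei with 4 markers in the KO-labelled library.

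Those 117 nuclei carried markers of other cell types. Summed macrophage markers (Mrc1, F13a1, Cd163, Csf1r, Adgre1 and Ptprc) stood at 3336 CPM in them, against 602 with 5 and 207 with 6 adipocyte markers. Progenitor and fibroblast markers such as Dcn and Col1a1 stood at 9939, 2438 and 452 CPM. At least 3 macrophage markers were captured in 40 of the 117 nuclei and at least 3 progenitor markers in 61, and Malat1, a nuclear RNA, took 9.52% of their UMIs against 20.7% and 19.9%. Set against nuclei with 5 or 6 markers in the same library, where 20.1% of 10474 tested genes were at least 2-fold higher and 16% at most 0.5-fold, all 6 macrophage and all 8 progenitor markers were at least 2-fold higher (median log2 ratio 3.5 and 3.79), and 15 of 21 adipocyte genes outside the rule were at most 0.5-fold (median log2 −1.90, all tested genes 0.21). The same comparison in the WT-labelled library, where 2.27% of 5201 tested genes were higher and 3.1% lower, gave 0 of 21 adipocyte genes at most 0.5-fold and a median of −0.36 (all tested genes 0.04). There 1 of 6 progenitor, 1 of 3 macrophage and 1 of 1 tested muscle markers were at least 2-fold higher, and 1 of 3 T cell markers at most 0.5-fold. Summed muscle markers stood at 309 CPM with 4 adipocyte markers, against 15.6 with 5 and 17.0 with 6. Endothelial markers stood at 180, 79.7 and 70.3 CPM and macrophage markers at 673, 482 and 431 CPM. What part the markers of other cell types have in the low adipocyte level of the 117 nuclei was not tested. The main results of the comparisons below are also given for nuclei with 5 or 6 markers alone.

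**Figure D2:**
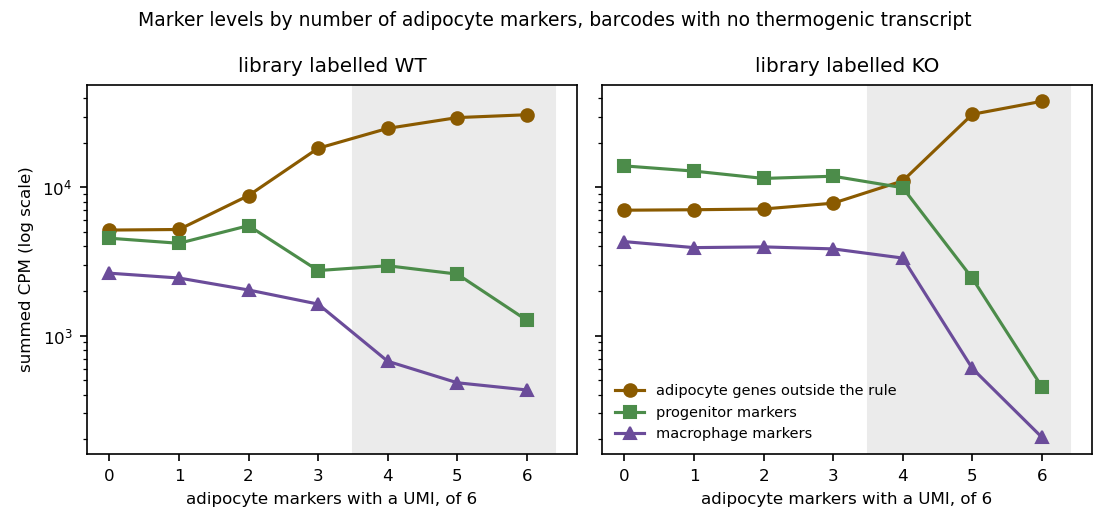
Summed level (vertical axis, CPM, log scale) of 21 adipocyte genes outside the rule, 8 progenitor markers and 6 macrophage markers in kept barcodes with no thermogenic transcript, by the number of adipocyte markers with a UMI (horizontal axis). The shaded range is the selection, and in the KO-labelled library the 4-marker nuclei lie at 11053 CPM of adipocyte genes and 3336 of macrophage markers, near the unselected barcodes.

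Over all nuclei without a thermogenic transcript, at least 3 progenitor markers were captured in 75 of 344 (21.8%) and 226 of 774 (29.2%), and at least 3 macrophage markers in 28 (8.14%) and 79 (10.2%). At least 3 B cell markers were found in 33 and 2 nuclei, T cell markers in 28 and 5, endothelial markers in 6 and 21, and skeletal muscle markers in 0 and 9. The summed macrophage level was 486 and 511 CPM against 2479 and 3915 CPM in kept barcodes with fewer than 4 adipocyte markers, and single markers ranged from 6.93 to 347 CPM and from 26.9 to 190 CPM. The summed progenitor level was 1980 and 1470 CPM against 4525 and 11922 CPM. In the WT-labelled library the muscle markers Myh4, Ckm and Acta1 and the epithelial markers Cdh1 and Krt14 were at 0 counts, and in the KO-labelled library all 5 epithelial markers were.

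The first comparison asked what sets the nuclei without a thermogenic transcript apart from all other kept barcodes of the same library, a group that also holds the adipocyte nuclei with a thermogenic transcript. A gene was tested when it had at least 50 counts over both groups, and called higher at a ratio of CPM of 2 or more and lower at 0.5 or less. In the WT-labelled library 7.97% of 11093 tested genes were called higher and 27.2% lower, and in the KO-labelled library 5.33% of 13552 were called higher and 21.3% lower. Higher genes were 22.6% and 20% of all calls, and 48.6% and 34.6% when libraries were scaled by the median ratio, which moved the median of all genes by 0.48 and 0.24 on the log2 scale. All 21 measured adipocyte genes outside the rule were tested in each library, and 19 and 9 of them were called higher and none lower. Their median log2 ratio was 1.98 and 0.88, where all tested genes had −0.48 and −0.24. Since the other kept barcodes include 79 and 298 adipocyte nuclei with a transcript, which hold a larger part of the UMIs in the KO-labelled library, the comparison was repeated against kept barcodes with fewer than 4 markers, chosen after seeing the data. Against these, 19 and 16 of 21 adipocyte genes were called higher, with medians of 2.80 and 2.76, where 8.92% and 12.2% of all tested genes were called higher and 29.3% and 27.7% lower. Ratios given below for single genes are against kept barcodes with fewer than 4 markers, except where another group is named. Since the nuclei were chosen by counts of the same libraries, the intervals show counting error and are no test.

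Adrb3, the adrenergic receptor through which catecholamines start lipolysis in mouse fat, stood at 865 CPM in the WT-labelled library and 496 CPM in the KO-labelled library, against 19.6 and 15.3 CPM in barcodes with fewer than 4 markers, ratios of 44.1 (35.8 to 54.8) and 32.4 (26.6 to 39.9). It was captured in 72.4% and 68.9% of the nuclei and in 1.95% and 4.07% of macrophage-marker barcodes. Acvr1c, a receptor of the transforming growth factor family found in mature adipocytes, was at 349.6 and 337 CPM, ratios of 21.2 (16.7 to 27.1) and 34.4 (26.8 to 44.8). Both receptors thus stood higher than in the other kept barcodes in both libraries, but adipocyte-marker nuclei with a thermogenic transcript held like levels, Adrb3 at 909 and 606 CPM and Acvr1c at 268 and 334 CPM. Npr3, the clearance receptor for natriuretic peptides, was at 539 and 1494 CPM, with ratios of 10.4 and 18.5. Ghr, the growth hormone receptor, was at 1382 and 10643 CPM, with ratios of 19.4 and 12.6.

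Enzymes of fat storage were among the genes called higher. Acsl1, which activates fatty acids with coenzyme A, stood at 4874 and 3126 CPM against 226 and 126 CPM, ratios of 21.6 (20.3 to 23.0) and 24.8 (23.2 to 26.7). Pck1, which in fat makes glycerol phosphate for triglyceride, was at 1011 and 429.5 CPM, ratios of 27.7 and 15.2. Dgat2, the enzyme of the last step of triglyceride synthesis, was at 529 and 647 CPM (ratios 9.48 and 6.76), and Gpd1, which also supplies glycerol phosphate, at 321 and 268 CPM (ratios 6.94 and 9.0). The list of triglyceride synthesis had median log2 ratios of 2.80 and 2.90. Of its 9 genes tested in each library, 8 and 8 were called higher, where 8.92% and 12.2% of all tested genes were. The exception in both was Agpat3, an acyltransferase of phospholipid and triglyceride synthesis, at ratios of 1.13 and 0.733.

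Some genes often used to name adipocytes separated these nuclei poorly. Fabp4, the fatty acid binding protein of adipocytes, stood at 9819.8 and 4491 CPM, but also at 3230.5 and 2810.1 CPM in barcodes with fewer than 4 markers, ratios of 3.04 (2.97 to 3.11) and 1.60 (1.57 to 1.63). It was captured in all of the nuclei, and in 94.6% and 100% of macrophage-marker barcodes. Retn (resistin, a secreted protein) had ratios of 2.46 and 1.40, Mgst1 (a glutathione transferase) of 1.57 and 1.25, and Cd36, a fatty acid carrier of the cell surface, of 1.40 and 2.79. The genes of the list not called higher were Mgst1 and Cd36 in the WT-labelled library and Fabp4, Lpl, Mgst1, Retn and Slc2a4 in the KO-labelled library.

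**Figure D3:**
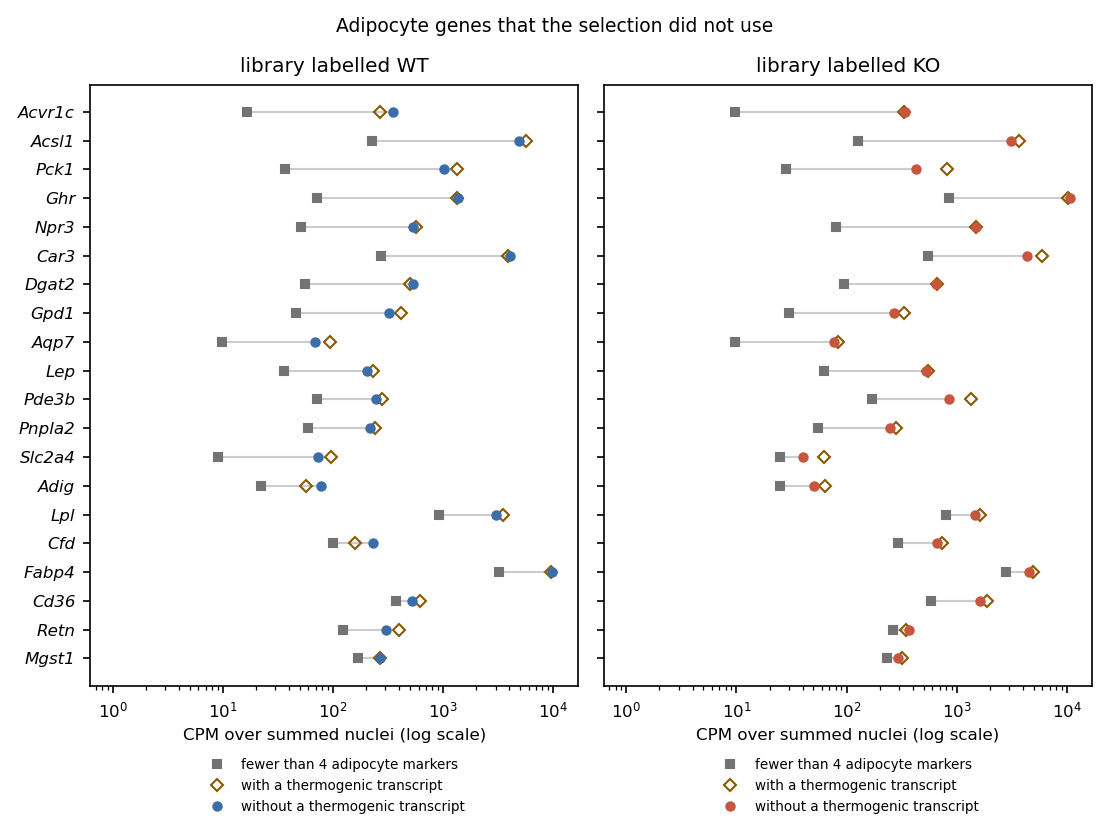
Level (horizontal axis, CPM, log scale) of 20 adipocyte genes that the selection did not use, in nuclei without a thermogenic transcript (filled circles), adipocyte-marker nuclei with one (open diamonds) and kept barcodes with fewer than 4 adipocyte markers (squares), in each library. Acsl1 lies at 4874 and 3126 CPM against 226 and 126, while Mgst1 lies at 267 and 292 against 169.6 and 233.

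Of the other lists, lipid droplet and caveola proteins outside the rule were called higher in 7 of 10 and 7 of 11 tested genes (median log2 1.73 and 1.53). In this comparison 8.92% and 12.2% of all tested genes were called higher and 29.3% and 27.7% lower. G0s2, which inhibits the lipase Pnpla2, stood at 2427 and 1409 CPM, ratios of 17.0 (15.7 to 18.4) and 8.57 (8.04 to 9.13). Plin2, a perilipin found on droplets of many cell types, was at 324 and 275 CPM, ratios of 1.50 and 1.14, below its 499.9 and 372 CPM in macrophage-marker barcodes. Lipolysis genes were called higher in 8 of 10 and 8 of 11 (median log2 2.35 and 2.17), among them Pnpla2, the first lipase of triglyceride breakdown, at 216 and 248 CPM (ratios 3.65 and 4.50), and Mgll, the monoglyceride lipase, at 443 and 578 CPM (ratios 5.05 and 3.07). In the WT-labelled library 1 gene of the list was called lower. Adra2a, the receptor that restrains lipolysis, was at 0 counts in the nuclei of both libraries, which allows up to 3 counts in each.

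De novo lipogenesis, the making of fatty acids from glucose, was called higher in 10 of 15 genes in each library and lower in 0 and 1 (median log2 1.92 and 1.64). Among all tested genes the shares were 8.92% and 12.2% higher and 29.3% and 27.7% lower. Mlxipl, the carbohydrate-responsive transcription factor of this pathway, stood at 713 and 366 CPM, ratios of 30.0 (24.8 to 36.7) and 22.3 (18.4 to 27.4). Pnpla3, a lipid droplet enzyme induced with lipogenesis, was at 244 and 2098 CPM, ratios of 31.9 (22.8 to 46.0) and 57.8 (50.9 to 66.0). Fasn, the fatty acid synthase, was at 423 and 151 CPM (ratios 4.57 and 2.84), Acaca, which makes malonyl-coenzyme A, at 510.2 and 651 CPM (ratios 6.96 and 5.92), and Thrsp, a lipogenic regulator, at 653 and 492 CPM (ratios 9.47 and 9.54). Elovl5, an elongase of polyunsaturated fatty acids, lay below 1 in both, at 0.521 and 0.481.

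Fatty acid uptake and binding showed fewer higher genes, 6 of 10 and 4 of 10 with 1 lower in each (median log2 1.67 and 0.79). All tested genes had shares of 8.92% and 12.2% higher and 29.3% and 27.7% lower. The lower gene was Apoe, the lipoprotein component that macrophages make in quantity, at 477 and 602 CPM against 4048 and 3086 CPM in macrophage-marker barcodes. Lpl, the lipase that frees fatty acids from lipoproteins, stood at 3049.7 and 1478 CPM, ratios of 3.34 and 1.86, and Slc27a1, a fatty acid transporter, at 468 and 477 CPM, ratios of 7.10 and 8.04. Among secreted factors 7 of 8 and 6 of 10 were called higher (median log2 1.79 and 1.34). Nrg4, a growth factor released by fat, was at 192 and 885 CPM (ratios 25.1 and 50.3), Lep, which encodes leptin, at 205 and 530.5 CPM (ratios 5.68 and 8.43), and Vegfa, the vascular growth factor, at 767 and 439 CPM (ratios 7.54 and 9.02).

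Transcription factors of adipogenesis were called higher in 9 of 16 and 7 of 16 (median log2 1.15 and 0.82). For all tested genes this share was 8.92% and 12.2%. Klf15, a factor of adipocyte and amino acid metabolism, stood at 39.9 and 54.0 CPM, ratios of 19.3 and 8.40, and Cebpa, a partner of Pparg in adipocyte differentiation, at 189.5 and 116 CPM, ratios of 6.80 and 3.61. Ebf1, which acts in adipocytes, their progenitors and B cells, was at 3036 and 3144 CPM and at a similar level elsewhere, with ratios of 1.26 and 1.34. Of 10 insulin signalling genes 7 and 6 were called higher (median log2 1.67 and 1.43). Slc2a4, the insulin-responsive glucose transporter, was at 73.4 and 40.1 CPM, with ratios of 8.08 (5.69 to 11.7) and, not called, 1.60 (1.31 to 1.95).

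Of 11 genes of mitochondrial fatty acid oxidation 2 and 2 were called higher and 0 and 1 lower (median log2 0.72 and 0.46), where 8.92% and 12.2% of all tested genes were called higher, with Slc25a20, the mitochondrial acylcarnitine carrier, at 127 and 86.3 CPM (ratios 5.84 and 3.13). Branched-chain amino acid breakdown was called higher in 3 and 8 of 13 genes (median log2 0.80 and 1.19), with Bckdhb, a subunit of the branched-chain ketoacid dehydrogenase, at 114 and 568 CPM (ratios 5.68 and 6.02). With 5 or 6 markers alone, the medians were 2.80 and 2.99 for triglyceride synthesis, 2.36 and 2.26 for lipolysis, 1.97 and 1.72 for lipogenesis, 1.71 and 0.82 for fatty acid uptake, 1.85 and 1.43 for secreted factors and 0.75 and 0.53 for fatty acid oxidation. Immediate-early genes, which respond within minutes to stress and tissue handling, were lower in 3 and 4 of 6 tested genes and higher in none (median log2 −1.13 and −1.39), where 29.3% and 27.7% of all tested genes were called lower. Fos stood at 17.3 and 10.6 CPM against 29.1 and 33.5 CPM, and Junb at 32.9 and 22.7 CPM against 91.7 and 43.2 CPM, so that of these only Junb in the WT-labelled library and Fos in the KO-labelled library were called lower.

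Beyond the lists, the 10 genes with the largest ratio in both libraries against all other kept barcodes included Olfr655, Grin2b, Peg3, A930028N01Rik, Arfgap2, Olfr731, Slc7a10, Lhfpl2 and Adcy5. Slc7a10, a transporter of neutral amino acids, stood at 669 and 345 CPM, against 75.6 and 112 in the other barcodes (ratios 8.85 (7.89 to 9.94) and 3.07 (2.86 to 3.30)), and was captured in 272 of 344 and 557 of 774 nuclei. Adcy5, an adenylyl cyclase that makes the second messenger of adrenergic signalling, was at 116 and 201 CPM (ratios 4.55 and 2.93). Peg3, an imprinted zinc finger gene, was at 604 and 119 CPM (ratios 5.25 and 3.17), and Arfgap2, which acts in vesicle traffic, at 339 and 307 CPM (ratios 4.50 and 3.13). The ratios of all 10 ranged from 3.34 to 12.4 and from 2.93 to 5.07. In adipocyte-marker nuclei with a thermogenic transcript, Slc7a10 was at 572 and 312 CPM and Adcy5 at 144 and 178 CPM. Peg3 was at 746 and 85.3 CPM there, and Arfgap2 at 240 and 227 CPM. Olfr655, an olfactory receptor gene of a large family among whose members counting can split reads, rested on few nuclei. It was captured in 15 and 29, and the 3 nuclei with most UMIs held 83.2% and 55.7% of its counts.

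The second comparison set the nuclei without a thermogenic transcript against the adipocyte-marker nuclei that held one, to ask what goes with the 3 genes. The nuclei with a transcript were deeper, with medians of 5404 and 9063 UMIs. Of 21 adipocyte genes outside the rule, 0 were called in either direction in the WT-labelled library and 0 in the KO-labelled library, with median log2 ratios of −0.17 and −0.15, where all tested genes had −0.11 and 0.03 and 1.51% of 6290 and 4.17% of 11476 were called higher and 1.13% and 0.688% lower. Scaling by the median ratio in place of total UMIs moved the calls of the WT-labelled library from 57.2% higher to 75.9% higher. Adrb3, at 865 and 496 CPM without and 909 and 606 CPM with a thermogenic transcript, had ratios of 0.951 (0.855 to 1.06) and 0.819 (0.774 to 0.866). Pck1 lay lower in the nuclei without a thermogenic transcript, at 1011 against 1334 CPM and 429.5 against 818 CPM, ratios of 0.758 (0.692 to 0.830) and 0.525 (0.498 to 0.553), which did not pass the threshold of 0.5.

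Some other thermogenic genes, which the rule did not use, were called lower in the nuclei without Ucp1, Cidea and Ppargc1a transcripts. In the KO-labelled library 4 of 12 tested genes were called lower and 0 higher, with a median log2 ratio of −0.63. Among all tested genes there, 0.688% were called lower and 4.17% higher. In the WT-labelled library 4 genes had enough counts, 1 was called lower, and the median was −0.56. All tested genes of that library had 1.13% lower and 1.51% higher. Ppara, a nuclear receptor of fatty acid oxidation, stood at 42.4 CPM without and 148 CPM with a thermogenic transcript in the KO-labelled library, a ratio of 0.286 (0.246 to 0.331), and was captured in 23.3% against 43.3% of nuclei and in 0.302% of macrophage-marker barcodes. After thinning to 1000 UMIs the shares were 4.04% (31 of 768), 11.1% (33 of 298) and 0.156%. Ppara in the WT-labelled library was at 4.04 against 22.4 CPM, a ratio of 0.181 (0.0594 to 0.511) that rests on 7 and 11 counts. Both intervals lay below 1.

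Esrrg, a nuclear receptor of mitochondrial genes, was at 41.3 against 123 CPM in the KO-labelled library, a ratio of 0.336 (0.288 to 0.392), with only 3 and 0 counts in the WT-labelled library. Otop1, a proton channel found in brown fat, was at 6.35 against 18.1 CPM, a ratio of 0.351 (0.231 to 0.528), and Pank1, a kinase of coenzyme A synthesis, at 5.02 against 13 CPM, a ratio of 0.387 (0.239 to 0.621). Dio2, the deiodinase that activates thyroid hormone in thermogenic fat, had 2 counts without and 21 counts with a transcript in the KO-labelled library and 6 and 0 in the WT-labelled library, too few for the tested set. Ppara, Esrrg, Otop1 and Pank1 were the 4 genes called lower in the KO-labelled library.

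Gk and Ppargc1b had ratios below 1 in both libraries, but only Gk in the WT-labelled library passed the threshold. Gk, the glycerol kinase, stood at 26.6 against 106 CPM in the WT-labelled library, a ratio of 0.251 (0.165 to 0.381), and at 24.5 against 48.5 CPM in the KO-labelled library, a ratio of 0.505 (0.404 to 0.631) that just missed the threshold. Without the 3 nuclei that held most of its counts in each group the ratios were 0.471 and 0.715, so part of the difference rested on few nuclei. Ppargc1b, a coactivator related to Ppargc1a, was at 60.1 against 104 and 87.1 against 147 CPM, ratios of 0.579 (0.411 to 0.827) and 0.591 (0.523 to 0.667).

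Other members of the list lay nearer to 1. Prdm16, a determinant of beige fate, had ratios of 0.802 (0.453 to 1.49) and 0.709 (0.634 to 0.794), and Ebf2, which marks beige and brown precursors, of 0.789 (0.452 to 1.44) and 0.774 (0.708 to 0.845). Kcnk3, a potassium channel of brown fat, had a ratio of 0.709 (0.535 to 0.943) in the KO-labelled library. Cox8b, a subunit of cytochrome oxidase, had a ratio of 0.927 (0.644 to 1.35) there, Letmd1, a mitochondrial protein of brown fat, of 1.29 (0.952 to 1.77), and Lhx8, a brown fat marker, of 1.10 (0.737 to 1.66), and these 3 intervals included 1. Elovl3, an elongase of brown fat, had 1 count against 8 in the WT-labelled library and none in either group of the KO-labelled library.

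**Figure D4:**
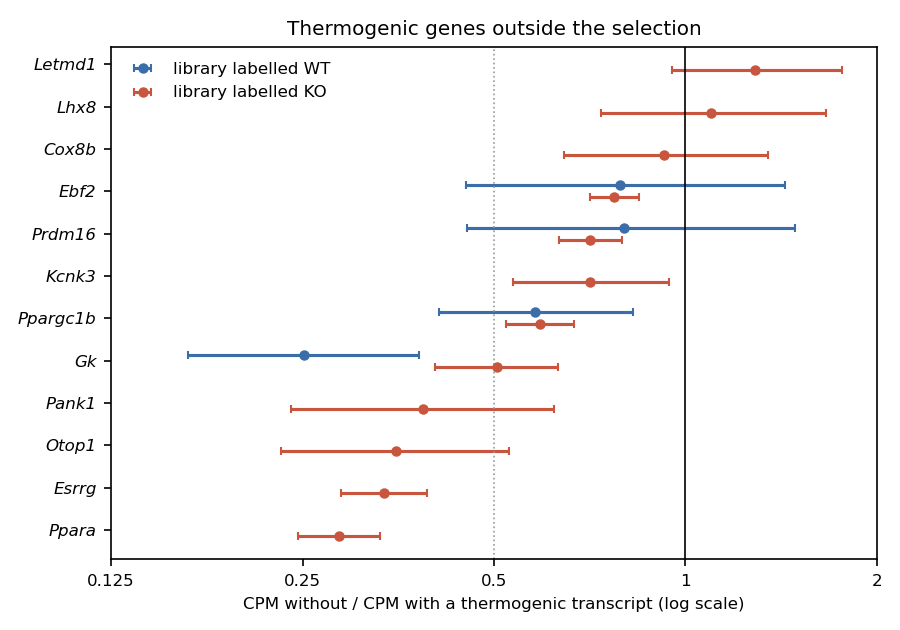
Ratio of CPM in nuclei without to CPM in nuclei with a thermogenic transcript (horizontal axis, log scale) for thermogenic genes that the rule did not use and that had at least 50 counts, with exact 95% intervals for counting error, by library. Ppara in the KO-labelled library lies at 0.286 and Gk in the WT-labelled library at 0.251, while the interval of Letmd1 in the KO-labelled library, around 1.29, includes 1.

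Of the tested genes of fatty acid oxidation, 8 in the WT-labelled library and 11 in the KO-labelled library, none was called in either direction, with medians of −0.43 and −0.33. Acadm, the medium-chain acyl-coenzyme A dehydrogenase, had ratios of 0.629 (0.499 to 0.797) and 0.728 (0.660 to 0.804), and Acacb, which makes the malonyl-coenzyme A that gates fatty acid entry into mitochondria, of 0.654 (0.483 to 0.893) and 0.569 (0.534 to 0.607). Plin5, the perilipin that ties lipid droplets to mitochondria, stood at 22.0 against 42.7 CPM and at 7.97 against 20.5 CPM, ratios of 0.514 (0.294 to 0.922) and 0.389 (0.267 to 0.564), of which the second passed the threshold. Ces1d, a carboxylesterase that hydrolyses triglyceride, was at 112 against 189 and 289 against 508 CPM, ratios of 0.590 (0.458 to 0.763) and 0.569 (0.532 to 0.607), and Col27a1, a collagen gene, at ratios of 0.426 and 0.280, though 53.1% and 54.0% of Col27a1 counts in the nuclei with a transcript lay in 3 nuclei. Together with Gk and Ppargc1b, these were the 5 genes with the smallest ratio in the same direction in both libraries. The 5 with the largest were Olfr1369-ps1, Olfr655, Iigp1, Gpnmb and Dpep1. Gpnmb, a gene of lipid-laden macrophages, had ratios of 2.58 (1.42 to 5.15) and 4.36 (2.26 to 9.40), but 67.0% and 46.1% of its counts lay in 3 nuclei, and Olfr1369-ps1 was captured in 7 and 5 nuclei.

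Markers of other cell types moved with this comparison. Summed macrophage markers stood at 486 CPM without and 592 CPM with a thermogenic transcript in the WT-labelled library, a ratio of 0.821 (0.718 to 0.941), and at 511 against 242 CPM in the KO-labelled library, a ratio of 2.11 (1.96 to 2.29). Progenitor markers had ratios of 1.01 (0.941 to 1.09) and 2.40 (2.29 to 2.52). With 5 or 6 adipocyte markers in both groups (265 and 68 nuclei, and 657 and 295), the macrophage ratios were 0.758 (0.656 to 0.877) and 1.23 (1.13 to 1.35) and the progenitor ratios 0.889 (0.824 to 0.960) and 1.17 (1.11 to 1.23), so most of the excess in the KO-labelled library lay in the 4-marker nuclei. Skeletal muscle markers stood at 62.4 against 54.9 CPM in the WT-labelled library and at 87.5 against 399 CPM in the KO-labelled library, a ratio of 0.219 (0.199 to 0.242). In the KO-labelled library at least 3 of 5 muscle markers were captured in 12 of 298 nuclei with and 9 of 774 nuclei without a transcript. With 5 or 6 adipocyte markers the muscle ratios were 0.273 (0.151 to 0.492) and 0.268 (0.241 to 0.298), while the WT-labelled ratio over all nuclei, 1.14 (0.740 to 1.80), had an interval that included 1. Muscle expresses Ppargc1a, Ppara and Esrrg too, so the list was recomputed without nuclei that held any muscle UMI, which left 320 and 69 nuclei in the WT-labelled library and 461 and 156 in the KO-labelled library. The median of thermogenic genes outside the rule was then −0.67 (4 genes tested, with 1.38% of all tested genes called higher and 1.65% lower) and −0.57, with 4 of 11 tested genes called lower in the KO-labelled library, where 4.56% of all tested genes were called higher and 0.531% lower, and the ratio of Ppara there was 0.218 and that of Esrrg 0.320.

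Without nuclei that held 3 or more markers of another class, which left 236 and 43 nuclei and 474 and 203 nuclei, the median was −0.96 in the KO-labelled library with 6 of 12 genes called lower, where 1.4% of all tested genes were called higher and 0.778% lower. Ppara had a ratio of 0.244 in this set. Only 2 genes of the list were then tested in the WT-labelled library (median −1.31), where 2.2% of all tested genes were called higher and 2.05% lower. With 5 or 6 markers only, the medians were −0.56 and −0.75, and 1.22% and 1.17% of all tested genes were called higher and 1.3% and 0.684% lower, against 4.17% higher in the KO-labelled library with all nuclei. The number of genes called higher in that library thus moved with the 4-marker nuclei, and the medians of the thermogenic list were negative in each of these sets. What part RNA of muscle and other cell types has in the lower thermogenic genes was not tested.

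The third comparison set the nuclei without a thermogenic transcript of the KO-labelled library against those of the WT-labelled library, to ask whether the genotypes differ in them. Of 11294 tested genes 26.8% were called higher and 15.1% lower in the KO-labelled library, so more than 2 in 5 genes passed the threshold between 2 single libraries, and a called gene is not by itself a difference of genotype. The direction went with the length of the gene. Genes with a span under 3000 bases had a median log2 ratio of −0.74, those from 3000 to 10000 bases −0.67, those from 10000 to 30000 bases −0.24, those from 30000 to 100000 bases 0.37 and those over 100000 bases 1.52. Malat1 took 32.4% and 19.1% of the UMIs of the nuclei, and when Malat1 and mitochondrial genes were left out of the totals the median of all tested genes moved by −0.27, and higher genes went from 64.0% to 48.3% of calls. List medians are therefore given plain and after the median of the gene's span class was subtracted, where 19.9% of 10844 genes were called higher and 12.1% lower. Without the 4-marker nuclei the plain medians were 1.39 for secreted factors, 1.20 for insulin signalling, −0.46 for lipogenesis, −0.70 for fatty acid uptake, 0.16 for adipocyte genes and 0.40 for thermogenic genes outside the rule, each within 0.1 of that list's value over all nuclei, and that of hypoxia and stress genes went from −0.69 to −0.49.

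Adipokines and secreted factors stood higher in the KO-labelled library on both scales, with 5 of 9 genes called higher and 1 lower (median log2 1.37), and 6 higher and 0 lower after subtraction (1.42), where all tested genes had medians of 0.06 and 0.02 and 26.8% and 19.9% of them were called higher. Markers of other cell types also differed between the libraries. B cell markers were called lower in 4 of 4 tested genes (median log2 −6.17) and T cell markers in 4 of 5 (−4.29), while macrophage markers were called higher in 4 of 6 (1.38, and 1 of 6 and 0.13 after subtraction), muscle markers in 4 of 5 and progenitor markers in 0 of 8. With 5 or 6 adipocyte markers alone, macrophage markers were called higher in 2 of 6 (0.56) and progenitor markers lower in 3 of 8 (−0.90). In that set 26.2% of all tested genes were called higher and 15.9% lower. Without nuclei that held 3 or more markers of another class, the plain medians were 1.16 for secreted factors, 1.13 for insulin signalling, −0.50 for lipogenesis and −0.88 for fatty acid uptake. What part markers of other cell types have in the list medians was not tested. Cfd, which encodes the complement factor adipsin, was at 233 and 665 CPM, a ratio of 2.85 (2.57 to 3.16). Lep was at 205 and 530.5 CPM, a ratio of 2.59 (2.32 to 2.89), and Nrg4 at 192 and 885 CPM, a ratio of 4.61 (4.13 to 5.17). Their log2 ratios after subtraction were 2.27, 1.63 and 1.85. Angptl4, an inhibitor of lipoprotein lipase, went the other way, at 549 and 205 CPM (ratio 0.373 (0.344 to 0.406), log2 after subtraction −0.74). The list thus held factors of both directions on the plain scale.

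Insulin signalling had a different median on each scale. Of 10 genes 7 were called higher and none lower on the plain scale (median log2 1.12), and the median was 0.07 after subtraction. Insr, the insulin receptor, had a plain ratio of 2.18 and a log2 ratio after subtraction of −0.36. Irs1, the receptor substrate, stood at 32.9 and 186 CPM, a ratio of 5.63 with a log2 ratio of 2.14 after subtraction, and Foxo1, the transcription factor that insulin restrains, at 71.6 and 479 CPM, a ratio of 6.68 with 2.39. The adipocyte genes outside the rule had medians of 0.16 (7 of 21 higher, 3 lower) and 0.39 (4 higher, 0 lower), and the shares of 33.3% higher and 14.3% lower on the plain scale lay near the 26.8% and 15.1% of all tested genes. Ghr was at 1382 and 10643 CPM, a ratio of 7.70 (7.4 to 8.03) that was 1.47 on the log2 scale after subtraction.

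The medians of lipid synthesis and uptake lay below 0, but on the plain scale over all nuclei the share of lipogenesis genes called lower was no larger than that of all tested genes (13.3% and 15.1%). Without nuclei that held 3 or more markers of another class it was larger, 26.7% (4 of 15) against 12.3%. De novo lipogenesis had medians of −0.48 (2 of 15 higher, 2 lower) and −0.69 (1 higher, 5 lower, where 19.9% and 12.1% of all tested genes were called higher and lower). Fatty acid uptake had −0.74 (1 of 10 higher, 4 lower) and −0.56 (1 higher, 1 lower), so calls lower went from 4 to 1 with the subtraction. Fasn stood at 423 and 151 CPM, a ratio of 0.356 (0.324 to 0.392), and Slc25a1, the mitochondrial citrate carrier, at 110.4 and 38.2 CPM, a ratio of 0.346 (0.286 to 0.420). The lipogenesis genes called higher were Pnpla3, at 244 and 2098 CPM, a ratio of 8.60 (7.81 to 9.50) and a log2 ratio of 3.37 after subtraction, and Acacb, at 83.8 and 308 CPM, a ratio of 3.67 that was no longer called after subtraction (log2 0.40). Fabp4 was at a ratio of 0.457 (0.449 to 0.466) and Lpl at 0.485 (0.469 to 0.501), with log2 ratios of −0.44 and −0.78 after subtraction, neither of them called. Hilpda, a hypoxia-induced droplet protein, was at 62.4 and 17.4 CPM, a ratio of 0.279 (0.213 to 0.366), and the hypoxia and stress list had medians of −0.69 and −0.77.

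Among transcription factors Zfp423, a factor of white adipocyte identity, stood at 31.2 and 405 CPM, a ratio of 13 (9.91 to 17.3) and a log2 ratio of 2.22 after subtraction. Nfia, which acts in brown fat, was at 148 and 971 CPM, a ratio of 6.54 with 1.23 after subtraction, and Mlxipl at a ratio of 0.513 (0.479 to 0.549). The list as a whole had medians of 0.18 and 0.02. Thermogenic genes outside the rule were called higher in 4 of 10 and lower in 0 (median log2 0.44) and in 3 and 0 after subtraction (0.56), where 26.8% and 19.9% of all tested genes were called higher, the 4 being Ebf2, Prdm16, Esrrg at 1.73 and 41.3 CPM (3 and 280 counts), and Ppara at 4.04 and 42.4 CPM (ratio 10.5 (5.02 to 26.3)). The thermogenesis-related genes that the study named, Acsl1, Acss2, Adrb3 and Elovl6, which were chosen on these samples and so are no independent evidence, had ratios below 1, at 0.641, 0.777, 0.573 and 0.650. After subtraction these ratios ran from 0.233 to 0.922. Of the 4 genes, 1 was then called lower, where 12.1% of all tested genes were.

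Calcium and creatine cycling, a route of heat production that does not need Ucp1, was followed by 13 listed genes. Against barcodes with fewer than 4 markers 0 of 6 and 1 of 11 tested genes were called higher, where 8.92% and 12.2% of all tested genes were. In the same comparison 4 and 5 were called lower, where 29.3% and 27.7% of all tested genes were. Between the libraries 4 of 8 were called higher and 2 lower (median log2 0.75), where all tested genes had 26.8% and 15.1%. These counts became 2 and 2 after subtraction (−0.26), where all tested genes had 19.9% and 12.1%. Without nuclei that held 3 or more markers of another class, 1 of 5 tested genes was called higher and 1 lower (plain median 0.56). All tested genes then had 28.8% and 12.3%. Atp2a2, the calcium pump SERCA2, stood at 112 and 118 CPM, a ratio of 1.05 (0.898 to 1.24), and its interval included 1. Against nuclei with a thermogenic transcript its ratios were 0.672 (0.517 to 0.881) and 1.08 (0.956 to 1.23). Atp2a1, the pump of fast muscle, was at 10.9 CPM without and 42.5 CPM with a thermogenic transcript in the KO-labelled library, and Ryr1, the calcium release channel of skeletal muscle, at 2.07 against 30.8 CPM, in the direction of the muscle markers above. Itpr1, a calcium release channel of the endoplasmic reticulum, was at 83.2 and 202 CPM (ratio 2.43 (2.04 to 2.90), log2 after subtraction −0.20, the opposite direction), and Ckmt1 was at 0 counts in the nuclei of both libraries.

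**Figure D5:**
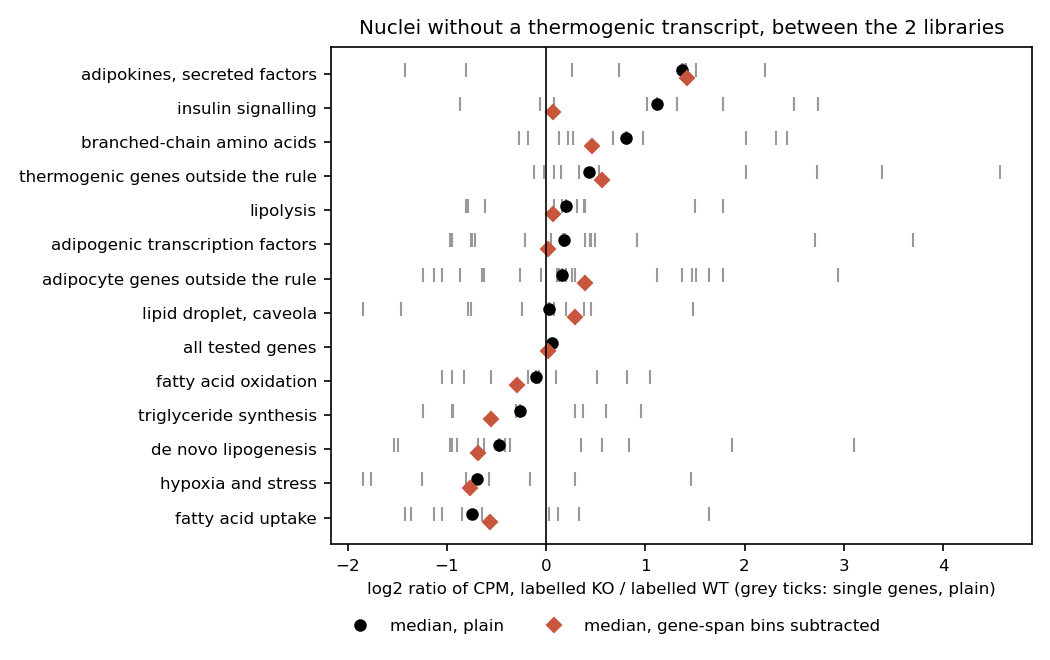
Log2 ratio of CPM in nuclei without a thermogenic transcript, KO-labelled library over WT-labelled library (horizontal axis), for each gene list: grey ticks are single genes on the plain scale, black circles the plain median and red diamonds the median after the span class was subtracted. Secreted factors keep a median of 1.37 and 1.42, while insulin signalling goes from 1.12 to 0.07.

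The 5 genes furthest up between the libraries, among those with at least 100 counts that stood at least as high in these nuclei as in the other kept barcodes of the library where the gene was higher, were near absent from the whole WT-labelled library. Gm20388 had 0 counts in the 344 nuclei and 0 in all other kept barcodes of that library. In the KO-labelled library it had 12895 counts in the nuclei and 15229 in the other barcodes. With 3 counts set for the 0, its ratio in the nuclei was 1098, and with 0 counts the exact interval began at 893. 9330175M20Rik had 1 and 3710 counts in the nuclei, Gm42906 1 and 3009, Fgf14 1 and 2258, and Lrmda 7 and 15628. In the other barcodes of the WT-labelled library these 4 had 2, 0, 4 and 6 counts. Furthest down under the same conditions, which B cell and T cell markers did not meet, was Col5a3, a fibrillar collagen gene that fat cells also express, at 1586 and 267 CPM (ratio 0.168 (0.159 to 0.179)), followed by Peg3 (0.197), Pdgfa, a growth factor (0.208), Olfr1369-ps1 (0.222) and Nabp1, a single-strand DNA binding protein (0.229).

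Within each library the nuclei varied. After thinning to 2000 UMIs (283 and 733 nuclei), the 21 adipocyte genes outside the rule summed to a median of 60 UMIs (lowest 9, highest 135) in the WT-labelled library and 69 (lowest 2, highest 174) in the KO-labelled library. Lipogenesis genes had a median of 10 (0 to 76) and 12 (0 to 107), so a small number of nuclei stood far above the rest. Thermogenic genes outside the rule were at 0 UMIs in 68.2% and 37.5% of thinned nuclei. Progenitor markers were at 0 in 42.0% and 40.2%, but reached 90 and 196 UMIs in 1 nucleus, and macrophage markers were at 0 in 63.3% and 79.5% and reached 9 and 61.

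The 10 genes with the largest variance over mean in both libraries after thinning to 1000 UMIs were Malat1, Gm42418, Col3a1, Nnat, Car3, Gsn, Meg3, Neat1, Olfr655 and Fabp4. Nnat, an imprinted gene of the endoplasmic reticulum, stood at 1521 and 3618 CPM and was captured in 207 of 344 and 603 of 774 nuclei, with up to 75 and 375 UMIs in 1 nucleus. Car3, a carbonic anhydrase abundant in fat cells, was at 4019 and 4343 CPM in 284 and 750 nuclei. Col3a1, a collagen of fibroblasts, had 47.7% and 28.3% of its counts in 3 nuclei. Gsn, an actin-severing protein, had 28.2% and 11.6% there, and was captured in 239 of 344 and 692 of 774 nuclei. Meg3, an imprinted noncoding RNA, was captured in only 30 and 79 nuclei. Nnat and Car3 therefore varied across many nuclei, while Col3a1, Meg3 and Olfr655 varied through few.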

How the data were processed

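Nuclei of iWAT were sequenced with a droplet 3′ method that tags each RNA molecule, and 1 filtered matrix per library, of 31053 genes and 5000 barcodes, was used. The deposited matrices hold UMI counts made by the authors with Cell Ranger 6.1.1, as the matrix header states. Seurat 4 and the mouse genome build mm10 are named in the submitters' processing notes. Neither intron counting nor the removal of free RNA is given in the sources used here, and both can change nuclear counts.

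From the counts, barcodes with at least 500 genes and at most 5% mitochondrial UMIs were kept, and members were chosen by the rule given above. Members and gene lists were chosen with earlier results of these data known. Libraries were made from 3 pooled mice each, with 1 per genotype, so a ratio has no replicate check and no p-value. CPM were computed from summed counts, genes with at least 50 counts over both groups were tested, and a ratio of 2 or 0.5 was the threshold. Intervals (95%) are Clopper-Pearson for shares and exact conditional binomial for ratios. Scores of doublets came from Scrublet in scanpy 1.11.5, and the top 4% of kept barcodes were marked and removed only in an alternative. Other steps used python 3.11.15, numpy 2.4.6, scipy 1.17.1 and pandas 2.3.3. Barcodes were thinned to 1000 or 2000 UMIs with a fixed seed. Spans of genes came from a RefSeq gene table by symbol and gave a length for 96.0% of genes compared between libraries, and no coordinates of it are used.

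Genes outside the lists were named by rule: the 10 with the largest ratio, in the library where it was smaller, against all other kept barcodes, with at least 100 counts in each library's members; the 5 furthest up and the 5 furthest down in both libraries against nuclei with a thermogenic transcript, with at least 50 counts over both groups in each library; the 5 furthest up and down between libraries, with at least 100 counts and a CPM in these nuclei that, in the library with the higher value, reached that of the other kept barcodes; and the 10 with the largest variance over mean, in the library where it was smaller, after thinning. The scripts were tested on simulated counts with 200 changed genes: of those tested, 200 of 200 and 198 of 198 were recovered against other barcodes (11102 and 13552 genes tested), 192 of 192 and 189 of 189 against nuclei with a thermogenic transcript (6183 and 11431), and 192 of 192 between libraries (11242), while 51, 19, 59, 22 and 66 unchanged genes passed the threshold. Alternatives changed the markers needed, the gene and mitochondrial limits, depth, scaling, the count minimum, doublets, lymphocyte-marker barcodes and gene span. Alternatives on nuclei with markers of other classes, on muscle UMIs, on barcodes with fewer than 4 markers and on the number of markers were added after seeing the data. A small number of genes that the lists or rules hold are not reported here by name.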

Additional observations from a re-analysis of the deposited data

Results flagged for a closer look

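Of the summed markers of other cell types, 3 lists had ratios whose exact intervals lay on opposite sides of 1 in the 2 libraries when nuclei without a thermogenic transcript were set against adipocyte-marker nuclei with one. Summed endothelial markers had a ratio of 0.637 in the WT-labelled library and 1.80 in the KO-labelled library, summed macrophage markers 0.821 and 2.11, and summed B cell markers 0.697 and 1.38. Without the nuclei with 4 adipocyte markers the KO-labelled library gave 1.08 (0.873 to 1.34) for endothelial markers, 1.23 (1.13 to 1.35) for macrophage markers and 0.666 (0.438 to 1.02) for B cell markers, and the WT-labelled library 0.488 (0.357 to 0.672), 0.758 (0.656 to 0.877) and 0.672 (0.551 to 0.824), so B cell markers then stood below 1 in both libraries, and the KO-labelled interval of endothelial markers included 1. T cell (1.58 and 1.85), mural (1.27 and 1.40) and progenitor markers (1.01 and 2.40) did not oppose each other, and muscle markers had 1.14 (0.740 to 1.80), whose interval included 1, and 0.219. The difference between the libraries was not tested, since each genotype has 1 library.

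Adipocyte markers also appeared in barcodes that the gene and mitochondrial limits removed. Of 1351 removed barcodes in the WT-labelled library 39 held at least 4 of the 6 markers, 33 of them without a thermogenic transcript, with a median of 3389 UMIs and 6.78% mitochondrial UMIs. In the KO-labelled library 248 of 2056 did, 223 of them without a thermogenic transcript, with a median of 784.5 UMIs and 10.9% mitochondrial UMIs. These barcodes entered no comparison.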

How the results depend on the processing

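No paired analysis was possible because each genotype has 1 library, and for the same reason no replicate could be left out. Of the counts and shares that answer the comparisons, 61 values under an alternative stayed within 1.5 times or within their interval and 39 did not. The share of kept barcodes was 11.2% and 37.4% with 3 markers, 7.26% and 22.3% with 5, 25.5% and 29.3% with at least 1000 genes, 7.55% and 21.7% after thinning, and 6.47% and 16.1% without nuclei that held 3 or more markers of another class, and it was 24.5% in the KO-labelled library with a limit of 10% mitochondrial UMIs. Against other kept barcodes in the WT-labelled library, where 884 genes were called higher and 3019 lower, median scaling gave 1564 and 1651, at least 200 counts 462 and 1673, and barcodes without lymphocyte markers 483 and 1868, and leaving out mitochondrial genes and Malat1 moved higher genes from 22.6% to 36.5% of calls. In the KO-labelled library, with 722 and 2883, median scaling gave 1230 higher, at least 200 counts 455 and 1675, and other barcodes with fewer than 4 markers 1596 higher, which made 30.5% of calls higher in place of 20%. Against nuclei with a thermogenic transcript in the WT-labelled library, with 95 higher and 71 lower, median scaling gave 40 lower and totals without mitochondrial genes and Malat1 39 lower (76.4% of calls higher in place of 57.2%), at least 20 counts 386 and 310, and at least 200 counts 1 and 0, and without muscle UMIs 45.6% of calls were higher. In the KO-labelled library, with 478 and 79, at least 20 counts gave 910 and 211, at least 200 counts 125 and 19, 5 markers 130 higher (63.1% of calls in place of 85.8%), leaving out nuclei with markers of another class 135 higher (64.3%), and leaving out muscle UMIs 51 lower. Between libraries, with 3031 and 1702, totals without mitochondrial genes and Malat1 gave 2709 lower, at least 200 counts 1933 and 661 (74.5% of calls higher in place of 64.0%), 3000 to 15000 UMIs 1127 lower, and leaving out nuclei with markers of another class 1131 lower. A higher count minimum tests fewer genes, and the cause of the other moves was not tested.

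Some directions reversed. The median of T cell markers against other barcodes in the KO-labelled library was 0.90 without lymphocyte-marker barcodes (2 genes, −2.71 with them). Without nuclei that held 3 or more markers of another class, the comparison with nuclei that held a thermogenic transcript in the KO-labelled library gave a median of −0.033 for progenitor markers (3 genes, 1.26 with them) and 0.39 for muscle markers (4 genes, −1.92 with them), with log2 ratios of −0.048 for Col1a1, −0.033 for Dcn, 0.12 for Ckm and 0.42 for Ttn, and between libraries a median of −1.73 for macrophage markers (2 genes), −0.40 for Mrc1 and 0.23 for Ttn. Ttn was also at 0.54 with 5 markers and 0.28 at 3000 to 15000 UMIs, against −2.0 as reported. After the span class was subtracted, log2 ratios between libraries were −0.36 for Insr, −0.20 for Itpr1 and −0.24 for Adgre1, all positive without it. The WT-labelled values of Ppara and Esrrg rest on 7 and 3 counts, so counting error limits their precision.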
